A study of Homo sapiens with 12 samples.

Results

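Cells depleted of WDR5 were set directly against cells depleted of EED, without the control in the contrast: 4 of the 12 arrays of the series, 2 titled siWDR5 and 2 titled siEED, were chosen by their titles. All arrays held RNA of NCCIT, a human embryonal carcinoma line grown as a single line, so that every group shared the same cells and the 2 groups of the contrast differed by the transfected siRNA. The siWDR5 cells received siRNA against WDR5 and the siEED cells siRNA against EED, while siNTC, the non-targeting siRNA whose arrays are labelled as a re-analysis, gave the level without either depletion. 2 further groups that the contrast did not use were read beside it: siEED+RNF2, which received siRNA against EED and against RNF2, and siSETD2, which received siRNA against SETD2, the H3K36 methyltransferase, and none against WDR5 or EED. Values of siRNF2, which received siRNA against RNF2 and none against EED, are given for a few named genes. By the paper's methods the double transfection used 2 siRNA pools and more reagent than a single one. A knockdown leaves part of the transcript in place, and the arrays report the whole culture, in which fewer cells of a type and less RNA per cell cannot be told apart.

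WDR5 is a WD-repeat subunit shared by the MLL/COMPASS complexes, which methylate lysine 4 of histone H3 (H3K4) at promoters of transcribed genes. EED is the subunit of Polycomb repressive complex 2 (PRC2) that binds H3K27me3 and stimulates EZH2, the enzyme that places this mark on silenced developmental genes. In pluripotent cells and in their tumour counterparts many CpG-rich promoters of developmental genes carry both marks, and WDR5 also takes part in complexes that do not methylate histones.

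The deposited values were log2 expression per transcript cluster after background correction and normalization between arrays, and 18417 genes had a cluster of their own. The median over genes was 6.84 and 6.83 in the siWDR5 arrays, 6.90 and 6.94 in the siEED arrays, and 6.85 and 6.83 in the siNTC arrays. Replicates correlated at 0.9962 for siWDR5 and 0.9970 for siEED over all transcript clusters, and the 4 pairs of a siWDR5 with a siEED array at 0.9933 to 0.9937. Of 15 embryonal carcinoma markers, 13 could be measured, and 12 of them lay above the array median on all 4 arrays, against 1 of 20 blood cell markers. Among the other lists, 12 of 31 neuroectoderm and 10 of 26 smooth muscle and fibroblast markers also did. So did 6 of 29 endoderm and yolk sac, 3 of 22 trophoblast and 2 of 25 mesoderm markers. No source used here states whether the 2 arrays of a group came from separate cultures; p-values therefore cover only the spread seen between arrays, which may be technical, and the small number of arrays limits the precision. All differences below are log2 values of siWDR5 minus siEED from limma, fitted over the 12 arrays with a mean per group, and a gene was called when its p, adjusted over all genes by Benjamini-Hochberg, was under 0.05 and its fold was at least 1.5.

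Each siRNA left its own target lower than the other siRNA did. WDR5 was 8.39 and 8.24 in siWDR5, against 9.86 and 9.82 in siEED and 9.48 and 9.58 in siNTC. The difference of -1.52 (standard error 0.07, adjusted p = 1.6e-07, limma) left 34.8% of the siEED level, and all siWDR5 arrays lay below all siEED and siNTC arrays. Set against the siNTC level, WDR5 was at 43.1% in siWDR5 and at 123.8% in siEED. The contrast for WDR5 is therefore wider than the depletion of WDR5 by its own siRNA. EED was 8.86 and 9.05 in siWDR5, against 8.25 and 8.14 in siEED and 9.55 and 9.43 in siNTC, a difference of 0.76 (standard error 0.08, adjusted p = 7.3e-05, limma). The siWDR5 arrays were thus between the others for EED, at 69.0% of the siNTC level, where siEED was at 40.8%. The contrast for EED is therefore narrower than the depletion of EED by its own siRNA. A lower EED level than in siNTC was not particular to siWDR5: EED differed from siNTC by -0.66 in siRNF2 and by -0.42 in siSETD2. Among the remaining histone methylation genes no other member was called: WDR5 was the only called member of 21 MLL/COMPASS subunits and EED the only one of 14 PRC2 subunits. Without siWDR5 replicate 1, 2 MLL/COMPASS subunits and 1 PRC2 subunit were called lower in siWDR5. SCMH1, a Polycomb group protein linked to PRC1, was called lower, at 9.14 and 9.05 in siWDR5 against 9.78 and 9.75 in siEED (difference -0.67), as 1 of 23 PRC1 subunits.

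DNMT3L, HHIP and A2ML1, for which the comparison was proposed, differed in opposite ways. DNMT3L, the catalytically inactive partner of the de novo DNA methyltransferases, was 6.89 and 6.88 in siWDR5, against 8.59 and 8.74 in siEED and 6.46 and 6.48 in siNTC (difference -1.78, standard error 0.07, adjusted p = 7.6e-08, limma). HHIP, which binds and sequesters hedgehog ligands at the cell surface, was 6.99 and 6.98 in siWDR5, against 9.35 in both siEED arrays and 6.0 and 5.85 in siNTC (difference -2.37, standard error 0.08, adjusted p = 3.4e-08, limma). For both genes the siWDR5 arrays stood nearer to siNTC than to siEED and above siNTC. A2ML1, a protease inhibitor of the alpha-macroglobulin family, was 8.79 and 8.69 in siWDR5, against 7.91 in both siEED arrays and 7.93 and 7.91 in siNTC (difference 0.83, standard error 0.06, adjusted p = 5.1e-06, limma). Here siEED differed from siNTC by -0.01 and siWDR5 stood above both.

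**Figure D1:**
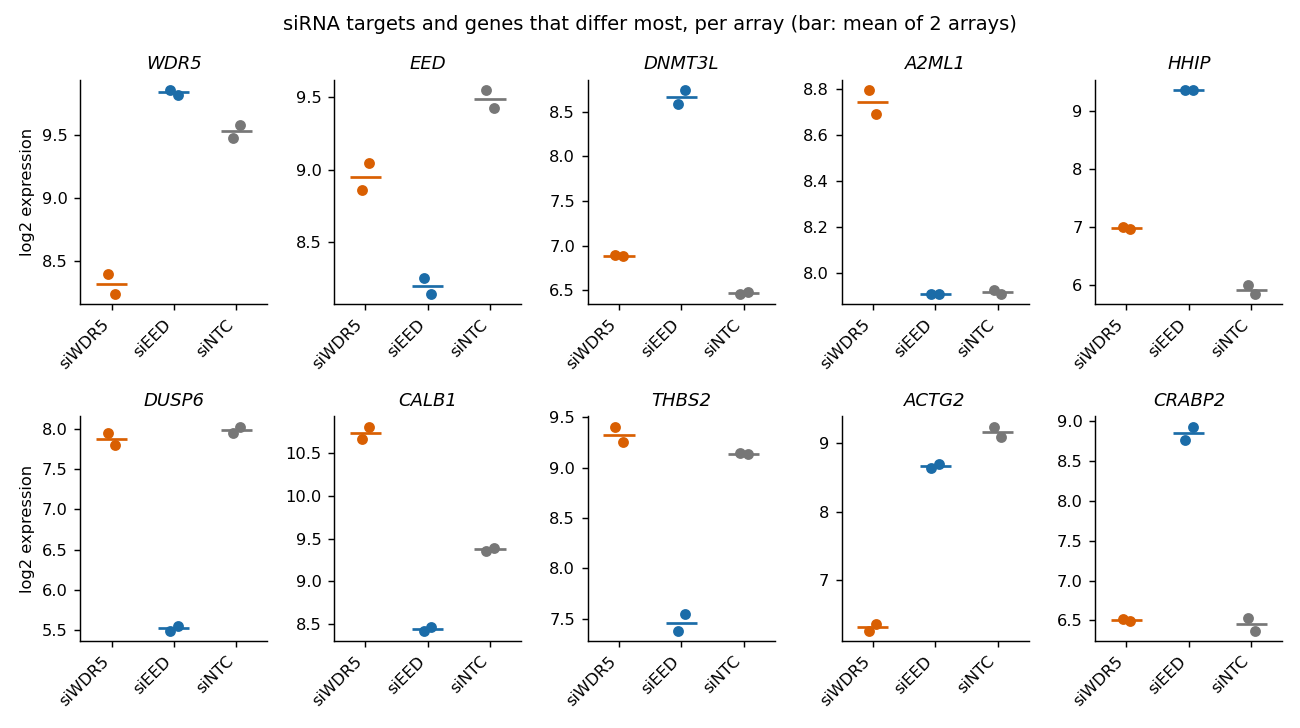
Log2 expression (vertical axis, a scale for each gene) of the 2 siRNA targets and 8 genes in siWDR5, siEED and siNTC, left to right. Each point is an array and each bar the mean of 2 arrays; DUSP6 lies at 7.94 and 7.80 in siWDR5 against 5.49 and 5.56 in siEED, and HHIP at 6.99 and 6.98 against 9.35 in both siEED arrays.

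The promoters of HHIP and A2ML1, and of DUSP6, which had the highest difference of all genes (below), are shown because MLL/COMPASS and PRC2 are both known for CpG-rich promoters and these 3 genes cover a wide range of CpG content. Each line holds the 250 bases before the RefSeq start of the gene (GRCh38.p14), 5′ to 3′ on the gene's strand, with each CG in capitals. They come from chr4:144645906-144646155 (plus strand) for HHIP, chr12:89352502-89352751 (minus strand) for DUSP6 and chr12:8822371-8822620 (plus strand) for A2ML1.
HHIP: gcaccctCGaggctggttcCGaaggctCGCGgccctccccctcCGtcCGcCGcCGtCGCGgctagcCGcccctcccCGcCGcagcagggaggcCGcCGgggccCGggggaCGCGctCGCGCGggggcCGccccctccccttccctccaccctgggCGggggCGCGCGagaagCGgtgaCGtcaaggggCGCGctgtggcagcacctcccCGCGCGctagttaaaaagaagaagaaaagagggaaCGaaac
DUSP6: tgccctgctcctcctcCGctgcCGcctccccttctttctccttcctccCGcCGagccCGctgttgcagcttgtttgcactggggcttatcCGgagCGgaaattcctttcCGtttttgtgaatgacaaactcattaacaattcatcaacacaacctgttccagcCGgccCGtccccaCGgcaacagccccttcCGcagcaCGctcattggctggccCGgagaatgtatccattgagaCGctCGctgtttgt
A2ML1: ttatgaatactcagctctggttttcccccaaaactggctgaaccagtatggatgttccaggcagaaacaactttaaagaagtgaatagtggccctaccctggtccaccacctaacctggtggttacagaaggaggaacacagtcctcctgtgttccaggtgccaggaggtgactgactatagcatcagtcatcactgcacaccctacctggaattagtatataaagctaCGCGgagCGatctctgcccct
HHIP held 34 CG, as many or more than which were found in 9.09% of the 14237 promoters given by RefSeq for the measured genes. DUSP6 held 16, reached by 56.9%, and A2ML1 held 3, reached by 87.8%. The letters CG read the same on both strands, 97.0% of promoters held at least 1, and the median was 18 (quartiles 7 and 26). DNMT3L is named without its promoter.

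Over all genes, 202 (1.10%) were called higher and 411 (2.23%) lower in siWDR5 than in siEED, together 3.33% of the 18417 tested. Of these, 40 and 57 differed at least 2-fold, and the median difference over all genes was 0.01. The shares of 1.10%, 2.23% and 3.33% are the background of all counts of called list members. The split between directions depended on the centring of the arrays: when arrays were centred on their gene medians, 296 genes were higher and 280 lower, so that 51.4% of calls were higher, against 33.0% as deposited. All 202 genes called higher and 280 of the 411 called lower were among those calls. Without any threshold, the 2 siWDR5 arrays lay above both siEED arrays for 29.5% of genes and below both for 28.6%.

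**Figure D2:**
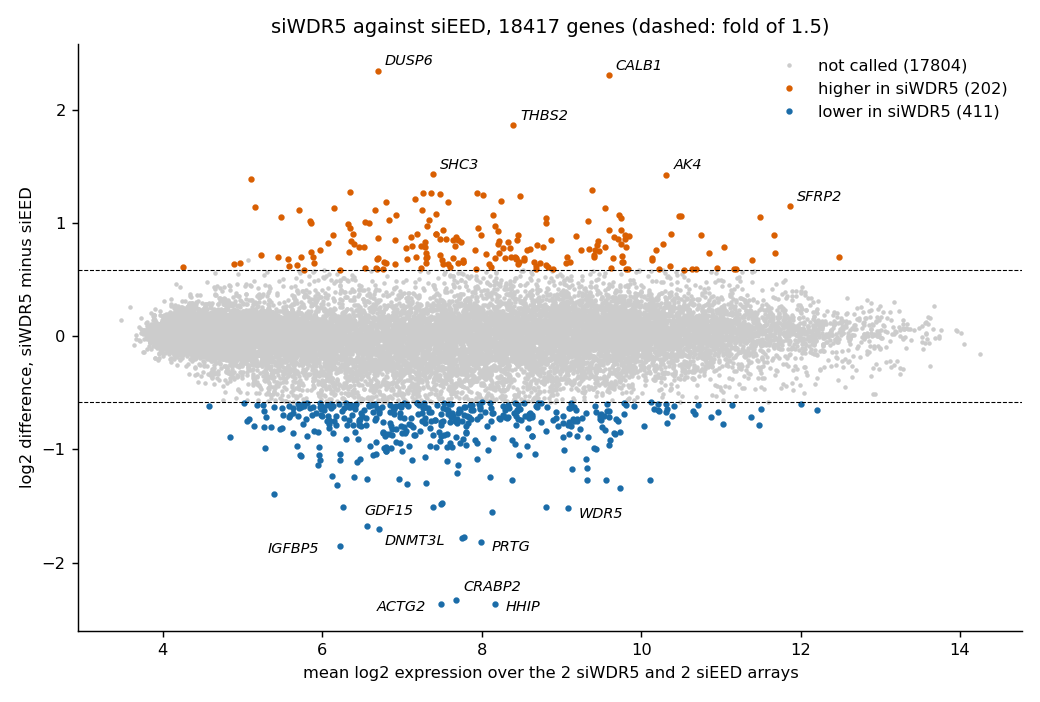
Log2 difference siWDR5 minus siEED (vertical axis) against mean log2 expression over the 4 arrays (horizontal axis), with a point per gene. Of 18417 genes, 202 are called higher (orange) and 411 lower (blue) in siWDR5, and the dashed lines mark a fold of 1.5; HHIP, at -2.37, and ACTG2, at -2.36, are the lowest points, and DUSP6, at 2.34, the highest.

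At the upper end, DUSP6, the phosphatase that inactivates ERK, was 7.94 and 7.80 in siWDR5, against 5.49 and 5.56 in siEED and 7.95 and 8.02 in siNTC (difference 2.34, standard error 0.09, adjusted p = 7.6e-08, limma). CALB1, the calcium buffer calbindin, was 10.67 and 10.81 in siWDR5, against 8.42 and 8.46 in siEED and 9.36 and 9.39 in siNTC (difference 2.30, standard error 0.07, adjusted p = 1.8e-08, limma). THBS2, the matrix glycoprotein thrombospondin 2, was 9.40 and 9.25 in siWDR5, against 7.38 and 7.55 in siEED and 9.14 and 9.13 in siNTC (difference 1.86, adjusted p = 7.6e-08, limma). DUSP6 and THBS2 were thus at or near the siNTC level in siWDR5 and low in siEED, whereas CALB1 was above siNTC in siWDR5 and below it in siEED. The same placement as DUSP6, with siWDR5 at or near the siNTC level, was seen for SHC3, a neuronal adaptor of receptor tyrosine kinases (difference 1.43), and for AK4, a mitochondrial adenylate kinase (1.42). The cluster read for AK4, a gene of chromosome 1, is numbered among those of chromosome 12 genes such as INHBE and DUSP6. Its values may therefore come from another locus. The placement was also seen for KCND2, a voltage-gated potassium channel subunit (1.39), which was near the lower end of the scale in siEED at 4.44 and 4.40. By contrast L1CAM, a neural adhesion molecule, was 7.02 and 6.95 in siWDR5, against 5.51 and 5.91 in siEED and 5.87 and 5.92 in siNTC (difference 1.27). CD44, the hyaluronan receptor, was 9.10 and 9.09 in siWDR5, against 7.81 and 7.91 in siEED and 8.22 and 8.19 in siNTC (1.23). L1CAM and CD44 therefore stood above siNTC in siWDR5. The differences of the 20 highest genes ranged down to 1.14 for CLEC6A, a C-type lectin whose arrays were 5.89 and 5.57 in siWDR5 against 4.74 and 4.45 in siEED.

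At the lower end, ACTG2, the smooth muscle gamma-actin, was 6.26 and 6.36 in siWDR5, against 8.64 and 8.70 in siEED and 9.25 and 9.09 in siNTC (difference -2.36, standard error 0.12, adjusted p = 3.1e-07, limma). CRABP2, which carries retinoic acid to its nuclear receptors, was 6.52 and 6.50 in siWDR5, against 8.76 and 8.92 in siEED and 6.53 and 6.37 in siNTC (difference -2.33, standard error 0.11, adjusted p = 1.8e-07, limma). These neighbours in rank were placed differently: for ACTG2 siEED stood near siNTC and siWDR5 far below, and for CRABP2 siWDR5 overlapped siNTC and siEED stood far above. IGFBP5, a binding protein of insulin-like growth factors, was 5.31 and 5.29 in siWDR5, against 7.07 and 7.23 in siEED and 5.11 and 5.21 in siNTC (difference -1.85). PLAU, the urokinase protease, was 6.88 and 6.84 in siWDR5, against 8.57 and 8.72 in siEED and 6.31 and 6.34 in siNTC (-1.78). Like CRABP2, both stood nearer to siNTC in siWDR5 and far above it in siEED. BEX1, a small adaptor of neurotrophin signalling, was 8.05 and 8.06 in siWDR5, against 9.53 and 9.60 in siEED and 9.14 and 9.01 in siNTC (-1.51), so that siWDR5 stood below both. GREB1L, a coactivator-like protein tied to retinoic acid in development, was 6.76 and 6.75 in siWDR5, against 8.20 and 8.27 in siEED and 5.39 and 5.26 in siNTC (-1.48), so that siEED and siWDR5 both stood above siNTC.

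Where siNTC fell for the called genes was counted from the group means. Of the 202 genes higher in siWDR5, siNTC was nearer to siWDR5 for 111 and nearer to siEED for 91, and it lay between the 2 knockdowns for 138, beyond siWDR5 for 39 and beyond siEED for 25. Of the 411 lower genes, siNTC was nearer to siWDR5 for 233 and nearer to siEED for 178, and it lay between them for 240. For 8 genes the knockdowns passed the test against siNTC, whose arrays both comparisons share, in opposite directions, 3 of them higher in siWDR5 than in siEED (CALB1, RND3 and B3GALT5) and 5 lower (PRTG, CDH9, GRHL3, DNM1P46 and MBNL3). Against siNTC, 2.80% of all genes were called higher and 3.22% lower in siWDR5, and 3.74% higher and 2.63% lower in siEED. PRTG, an immunoglobulin-family receptor of early neural development, was 7.01 and 7.15 in siWDR5, against 8.81 and 8.98 in siEED and 8.03 and 7.99 in siNTC. GRHL3, a transcription factor of epidermal barrier formation, was 5.70 and 5.74 in siWDR5, against 7.34 and 7.46 in siEED and 6.47 and 6.36 in siNTC. In both genes each siNTC array lay between those of the 2 knockdowns. DNM1P46 and MBNL3 were named after their values were seen.

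Of 21 measured ERK targets, 7 were called higher in siWDR5 and 0 lower by limma, with a median difference of 0.40 against 0.01 over all genes. ERK is the last kinase of the RAS cascade, through which fibroblast growth factors act, and its targets include transcription factors and inhibitors that feed back on the cascade. Before adjustment, 16 members were higher and 0 lower at p under 0.05, where 14.2% of all genes were higher and 17% (3137) lower; those shares are the background of every unadjusted count below. Among the feedback inhibitors, DUSP6 is given above, and SPRY4, a Sprouty protein that dampens receptor tyrosine kinase signalling, was 11.31 and 11.10 in siWDR5, against 10.29 and 10.32 in siEED and 11.01 and 11.08 in siNTC (difference 0.90, adjusted p = 4.9e-05, limma). SPRY2, its relative, was 11.22 and 11.19 in siWDR5, against 10.69 and 10.74 in siEED, a difference of 0.49 that stayed under the fold threshold. Among the transcription factors, ETV5, a PEA3-family ETS factor, was 10.30 and 10.20 in siWDR5, against 9.33 and 9.38 in siEED and 9.71 and 9.79 in siNTC (0.89). FOS, a subunit of AP-1, was 7.13 and 7.03 in siWDR5, against 5.93 and 6.24 in siEED and 6.99 and 6.79 in siNTC (1.00). EGR1, an immediate early zinc finger factor, was 8.0 and 8.04 in siWDR5, against 7.46 and 7.29 in siEED and 8.82 and 8.78 in siNTC (0.65), so that both knockdowns stood below siNTC. ETV4, another PEA3-family factor, differed by 0.60. CCND1, the G1 cyclin D1, was 9.93 and 9.76 in siWDR5, against 8.82 and 8.84 in siEED and 8.28 and 8.21 in siNTC (1.01), and both knockdowns stood above siNTC. Among the members that were not called, JUNB had the lowest difference at -0.13. In the siEED+RNF2 arrays set against siNTC, 1 of the 21 was called higher and 5 lower (median -0.14), where 5.49% and 6.02% of all genes were.

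Of 45 measured ATF4 amino acid response genes, 7 were called lower in siWDR5 (15.6%, against 2.23% of all genes) and 38 were not called. ATF4 is the transcription factor that is translated under amino acid shortage and raises amino acid transporters, synthesis enzymes and stress regulators. None was called higher by limma (0 of 45). At an unadjusted p under 0.05, 32 were lower and 3 higher, and the list had a median of -0.28, with 40 of 45 differences below 0. Against siNTC, 30 of the 45 were called higher in siWDR5 (median 0.88) and 38 in siEED (median 1.13), where 2.80% and 3.74% of all genes were. In either knockdown 0 were called lower than in siNTC by limma. GDF15, a stress cytokine, was 6.60 and 6.67 in siWDR5, against 8.07 and 8.22 in siEED and 5.56 and 5.53 in siNTC (difference -1.51, adjusted p = 7.7e-07, limma). NUPR1, a chromatin-associated stress protein, was 6.68 and 6.84 in siWDR5, against 8.27 and 8.21 in siEED and 6.12 and 5.98 in siNTC (-1.48). TRIB3, a pseudokinase that restrains ATF4, was 7.49 and 7.45 in siWDR5, against 8.34 and 8.47 in siEED and 6.17 and 6.11 in siNTC (-0.94). In all 3 genes both knockdowns stood above siNTC, siEED further than siWDR5. INHBE, an inhibin beta chain (-0.92), CLGN, the chaperone calmegin (-0.88), SLC1A4, a neutral amino acid transporter (-0.75), and SLC7A5, the light chain of the LAT1 transporter (-0.61), had the same order of groups. ATF4 itself was 11.69 and 11.79 in siWDR5, against 11.54 and 11.59 in siEED (0.18, not called), and MTHFD2, a mitochondrial folate enzyme of the list, differed by 0.00. The aminoacyl-tRNA synthetases, several of which respond to ATF4, had 0 of 19 called higher or lower by limma (4 and 4 at an unadjusted p under 0.05), and 1 was called lower without siWDR5 replicate 2 or siEED replicate 2. The letters TGATGCAA, which ATF4 binds with C/EBP partners, were searched on both strands of the 300 bases around each start: they occurred in 3 of the 35 promoters given for the list, in 0 of the 5 given for called members, and in 0.73% of all promoters. Only 35 of 45 members had a promoter, so no share is read for the list.

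**Figure D3:**
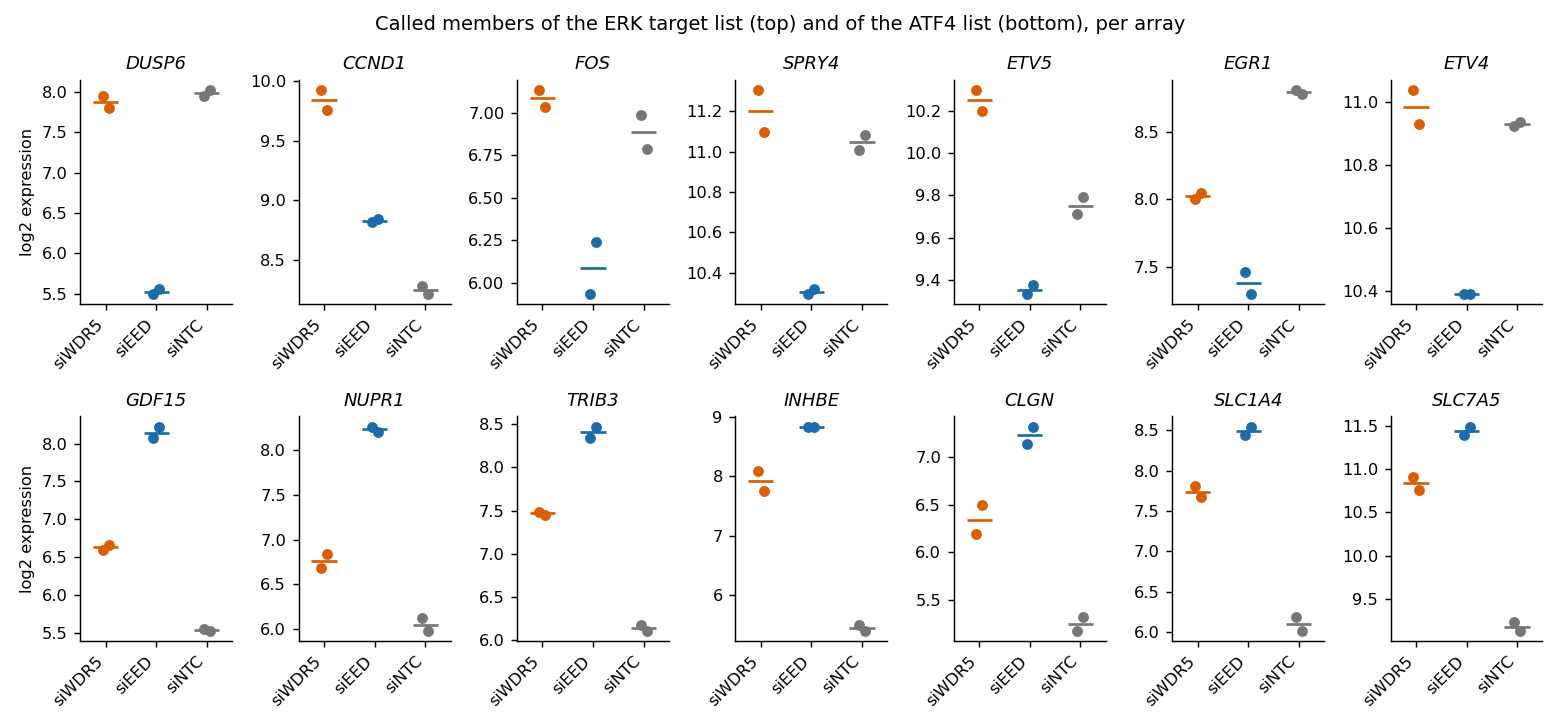
Log2 expression (vertical axis, a scale for each gene) of the 7 called ERK targets (top) and the 7 called ATF4 amino acid response genes (bottom) in siWDR5, siEED and siNTC, left to right; each point is an array and each bar the mean of 2. All siWDR5 arrays lie above all siEED arrays in the top row and below them in the bottom row, and in the bottom row both knockdowns lie above siNTC.

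In other signalling pathways a few genes of each list were called. The shares were 4.55% for hedgehog, 10.0% for retinoic acid and 10.0% for NODAL, BMP and TGF-beta genes. They were 12.1% for WNT and 22.2% for VEGF genes, against 3.33% of all genes. HHIP was the only called gene of 22 measured in the hedgehog pathway, and PTCH1, the hedgehog receptor and itself a target of the pathway, had a difference of -0.58 just short of the fold threshold. PTCH1 was 10.25 and 10.14 in siWDR5, against 10.79 and 10.75 in siEED and 9.48 and 9.62 in siNTC, and GLI1, the transcription factor most often read as the pathway's output, differed by -0.47. Without siWDR5 replicate 1 there were 4 called hedgehog genes, and 2 without siEED replicate 1 or without siEED replicate 2. Of 20 retinoic acid genes, CRABP2 and DHRS3 were called lower. DHRS3, which reduces retinal, was 5.95 and 6.04 in siWDR5, against 6.87 and 6.81 in siEED and 6.02 and 6.06 in siNTC (difference -0.84). Of 9 VEGF ligands and receptors, the receptors FLT1 and KDR were called higher, while the ligand VEGFA differed by -0.22. FLT1 was 7.98 and 7.96 in siWDR5, against 6.94 and 6.84 in siEED and 8.48 and 8.39 in siNTC (1.08). KDR was 6.29 and 6.42 in siWDR5, against 5.27 and 5.45 in siEED and 6.52 and 6.20 in siNTC (1.00). In the WNT pathway 1 of 33 was called higher, SFRP2, a secreted WNT antagonist (1.15), and 3 lower, among them FRZB, another secreted antagonist (-0.94). Of 30 NODAL, BMP and TGF-beta genes, ID3, a BMP target, was called higher (0.76) and LEFTY2, an inhibitor of NODAL, lower (-0.95) along with INHBE; without siEED replicate 1, 4 were lower.

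The DNA methylation machinery had 2 of 19 members called, both lower: DNMT3L and ZBTB38, a zinc finger protein that binds methylated DNA. ZBTB38 was 7.66 and 7.67 in siWDR5, against 8.54 and 8.39 in siEED and 7.69 and 7.57 in siNTC (difference -0.80), and it fell short of the fold threshold at -0.57 when all clusters of the gene were averaged. The catalytic enzymes stayed close together: DNMT1, the maintenance enzyme, differed by 0.10 (adjusted p = 0.32, limma), DNMT3A by 0.13 (adjusted p = 0.16, limma) and DNMT3B by 0.23 (adjusted p = 0.021, limma, under the fold threshold). DNMT3B, the main de novo enzyme of pluripotent cells, was 11.94 and 11.89 in siWDR5, against 11.64 and 11.74 in siEED and 12.25 and 12.26 in siNTC. Of 29 pluripotency factors 1 was called higher and 1 lower (median 0.06). LEFTY2 was the lower one, and DPPA2, a chromatin factor of pluripotent cells, the higher one (0.69), which lost its call without siWDR5 replicate 2 (0.48) or without siEED replicate 1 (0.56). SOX2, a core pluripotency factor, was 12.84 and 12.82 in siWDR5, against 12.59 and 12.58 in siEED and 12.78 and 12.76 in siNTC (0.24, under the fold threshold).

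Markers of other cell types were called in shares from 0 to 12.9%, against 3.33% of all genes. Of 27 HOX genes, classical Polycomb targets, 0 were called by limma in either direction, and none had an unadjusted p under 0.05. Their means over all arrays ran from 4.09 to 6.85. The list median was 4.75 and 4.83 in siWDR5 and 4.87 and 4.73 in siEED, well below the array medians over genes. At such low levels the lack of calls says little about a response of HOX genes. Of 84 developmental transcription factors 1 was called higher, GBX2, a homeobox factor of the mid-hindbrain border (0.78), and 3 lower, HAND1 (-0.78), OLIG3 (-0.76) and TBX15 (-0.70). HAND1, a factor of mesoderm and trophoblast, was 5.62 and 5.76 in siWDR5, against 6.33 and 6.61 in siEED and 7.31 and 7.25 in siNTC, so that both knockdowns stood below siNTC. Of 31 neuroectoderm markers 3 were called higher, the galanin precursor GAL (0.90), the neurofilament-associated INA (0.69) and the neurofilament NEFL (0.69), and 1 lower, TAC1, a neuropeptide precursor (-0.71), which fell short of the threshold at -0.55 without siEED replicate 2. NEFH, the heavy neurofilament, was among the 20 highest genes at 1.27. These 4 calls were 12.9% of the neuroectoderm list. The smooth muscle and fibroblast list of 26 held ACTG2, lower, and THY1, a surface glycoprotein, higher (1.13), which is 7.69%. Of 25 mesoderm markers KDR was called higher and HAND1 lower (8.0%). Of 22 trophoblast markers HAND1 and TFAP2A, an AP-2 transcription factor, were called lower (9.09%), and TFAP2A (-0.60) missed the fold threshold without siWDR5 replicate 2 or without siEED replicate 2 (-0.54 in each) and with gene-median centring (-0.51). Endoderm and yolk sac markers had 0 of 29 called higher or lower by limma (7 and 0 at an unadjusted p under 0.05), and blood cell markers 0 of 20 (1 and 2), where 14.2% and 17% of all genes were higher and lower at that p. With gene-median centring 1 endoderm marker was higher.

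**Figure D4:**
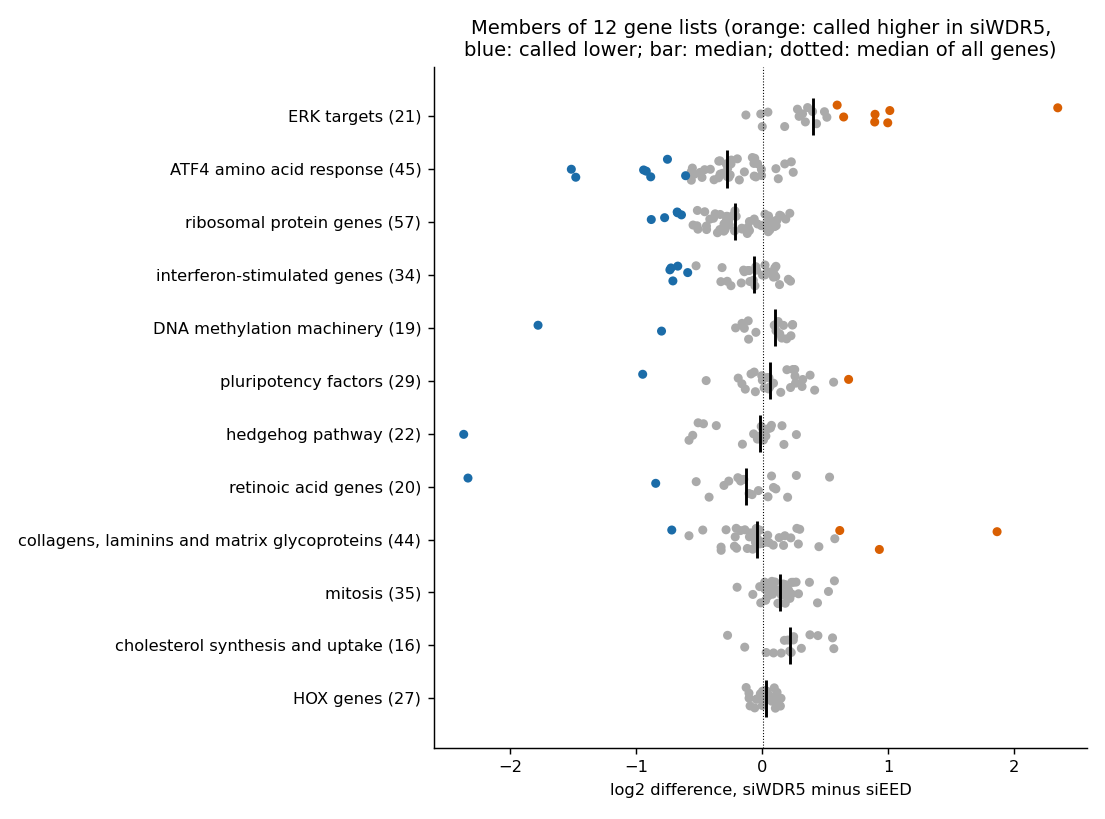
Log2 difference siWDR5 minus siEED (horizontal axis) for each measured member of 12 gene lists, with the number measured in parentheses; orange points are called higher in siWDR5 and blue points lower, bars are list medians, and the dotted line is the median of all genes (0.01). The ERK targets have a median of 0.40 and the ATF4 amino acid response genes of -0.28, and no HOX gene is called.

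Ribosomal protein genes had 5 of 57 called lower (8.77%, against 2.23% of all genes) and 0 higher by limma. At an unadjusted p under 0.05, 33 were lower and 3 higher, and the median was -0.22. RPL32 was 8.21 and 8.17 in siWDR5, against 9.10 and 9.04 in siEED and 9.06 and 9.05 in siNTC (difference -0.88, adjusted p = 1.2e-05, limma). RPL29 was 10.70 and 10.57 in siWDR5, against 11.34 and 11.48 in siEED and 10.68 and 10.70 in siNTC (-0.77). siWDR5 therefore stood below siNTC for RPL32 and at its level for RPL29. RPL36 (-0.67), RPS15 (-0.67) and RPS7 (-0.64) made up the 5, and without siWDR5 replicate 2 there were 3, since RPS15 (-0.55) and RPS7 (-0.57) then missed the fold threshold. Both also missed it when all clusters of the gene were averaged, at -0.36 for RPS15 and -0.47 for RPS7. Ribosomal protein genes have many near-identical pseudogene copies, which array probes may not tell apart. Replication-dependent histone genes, which also share sequence, had 3 of 46 called lower and 0 higher by limma (18 and 1 at an unadjusted p under 0.05), with a median of -0.11, and 6 lower without siWDR5 replicate 1.

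Interferon-stimulated genes had 5 of 34 called lower and 0 higher by limma (10 and 1 at an unadjusted p under 0.05), with a median of -0.06. IFI16, a nuclear DNA sensor, was 9.11 and 9.12 in siWDR5, against 9.85 and 9.84 in siEED and 9.01 and 8.88 in siNTC (difference -0.73). IFITM3, which blocks viral entry, was 10.12 and 9.96 in siWDR5, against 10.72 and 10.77 in siEED and 10.38 and 10.28 in siNTC (-0.71). IFI6 (-0.72), TRIM22 (-0.67) and BST2 (-0.59) completed the 5, and each of these 3 missed a threshold when 1 array was left out, at -0.54 for IFI6 without siWDR5 replicate 1, -0.57 for TRIM22 without siEED replicate 1 and -0.53 for BST2 without siEED replicate 2. With gene-median centring 3 were called. Of 15 antigen presentation genes 2 were called lower. HLA-DPB1, a class II chain, was 5.73 and 6.03 in siWDR5, against 6.88 and 7.10 in siEED and 8.0 and 7.73 in siNTC (-1.11), and HLA-DMA, which loads class II molecules, differed by -0.87. 5 were called lower without siWDR5 replicate 2.

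In the matrix list of 44 collagens, laminins and glycoproteins, 3 were called higher, THBS2, the basement membrane protein NID1 (0.93) and TNC (0.62), and 1 lower, the link protein HAPLN1 (-0.72). TNC missed the fold threshold without siWDR5 replicate 1 or without siEED replicate 1 (0.57 in each), and 2 were lower without siWDR5 replicate 2 or siEED replicate 2. Of 27 hypoxia and glycolysis genes, 2 were called higher and 0 lower by limma (18 and 2 at an unadjusted p under 0.05; median 0.23). LDHA, lactate dehydrogenase A, was 12.82 and 12.84 in siWDR5, against 12.20 and 12.07 in siEED and 12.67 and 12.68 in siNTC (difference 0.70). PFKFB3, which drives glycolysis through fructose 2,6-bisphosphate, also differed by 0.70, and 4 genes were higher without siWDR5 replicate 2. Of 17 G1 cyclins and CDK inhibitors, 1 was called higher, CCND1 (above), and 2 lower (17.6% in all, against 3.33% of all genes). CDKN1B, the inhibitor p27, was 8.58 and 8.47 in siWDR5, against 9.23 and 9.32 in siEED and 9.18 and 9.22 in siNTC (-0.74), so that siWDR5 stood below both. CCNE2, cyclin E2, was 6.18 and 5.94 in siWDR5, against 6.68 and 6.66 in siEED and 7.35 and 7.09 in siNTC (-0.61). It missed the fold threshold with gene-median centring (-0.53) or without siWDR5 replicate 2 (-0.49). Mitosis genes had 0 of 35 called by limma, with 17 higher and 1 lower at an unadjusted p under 0.05 and a median of 0.14, and 1 was called higher without siWDR5 replicate 1 or without siEED replicate 2. Cholesterol synthesis genes had 0 of 16 called by limma, with 11 higher and 1 lower at an unadjusted p under 0.05 and a median of 0.22. With gene-median centring 2 of them were called higher, and with quantile normalization 1. Against siNTC the medians of both lists were negative in both knockdowns. They were -0.15 in siWDR5 and -0.29 in siEED for mitosis genes, and -0.24 and -0.46 for cholesterol synthesis genes.

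The genes called higher in siWDR5 had long spans. The median span in the RefSeq annotation was 77.4 kb for the 202 genes higher in siWDR5 and 29.8 kb for the 411 lower, against 24.5 kb over all genes. Both called sets were also brighter, with a median level over all arrays of 8.04 for the higher and 7.60 for the lower, against 6.90. Span was not separated from level. Among the 4597 genes with the longest spans, from 65.8 kb, 2.35% were called higher and 2.55% lower. Among the 4598 with the shortest spans, up to 8.41 kb, the shares were 0.522% and 1.76%. Over all 18389 genes with a span, the difference and the span had a Spearman's rho of -0.02 (across genes, which share probes, arrays and base composition and are not replicates). Of 494 zinc finger genes with symbols starting ZNF, 0 were called higher and 19 lower by limma (3.85%), where 1.10% and 2.23% of all genes were. Their median was -0.07, and 37 were higher and 144 lower at p under 0.05 before adjustment.

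The called genes were then read in the arrays that the contrast did not use. siEED+RNF2 cells carried siRNA against EED and against RNF2 in separate arrays, with more siRNA and reagent than a single transfection. In siEED+RNF2 against siNTC, 6 of the 202 genes higher in siWDR5 were called higher and 76 lower (37.6%), with a median of -0.42. Of the 411 genes lower in siWDR5, 163 were called higher (39.7%) and 28 lower, with a median of 0.43. Over all genes 5.49% were called higher and 6.02% lower in siEED+RNF2, with a median of -0.02. Both medians in siEED+RNF2 had the sign in which siEED differed from siWDR5. DUSP6 differed there by -2.29, CRABP2 by 2.26 and DNMT3L by 2.46, whereas ACTG2, lower in siWDR5 than in siEED, was also lower in siEED+RNF2 than in siNTC, by -1.35. In siRNF2 against siNTC, without siRNA against EED, DUSP6 differed by -1.87, CRABP2 by 1.62, DNMT3L by 1.84 and ACTG2 by -2.76. Which siRNA the differences in siEED+RNF2 came from was not tested. In siSETD2 against siNTC, 29 of the 202 were called higher (14.4%) and 40 lower (19.8%; median 0.03), and 44 of the 411 higher (10.7%) and 54 lower (13.1%; median 0.02), where 2.64% of all genes were called higher and 3.18% lower (5.82% in either direction). Neither set had a prevailing direction in siSETD2. With gene-median centring, which also changed the called sets, the 6 of 202 became 11 of 296 (3.72%) and the 163 of 411 became 108 of 280 (38.6%), and without siWDR5 replicate 2 the 6 became 10 of 223 (4.48%); these counts under other settings were added after the data were seen.

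**Figure D5:**
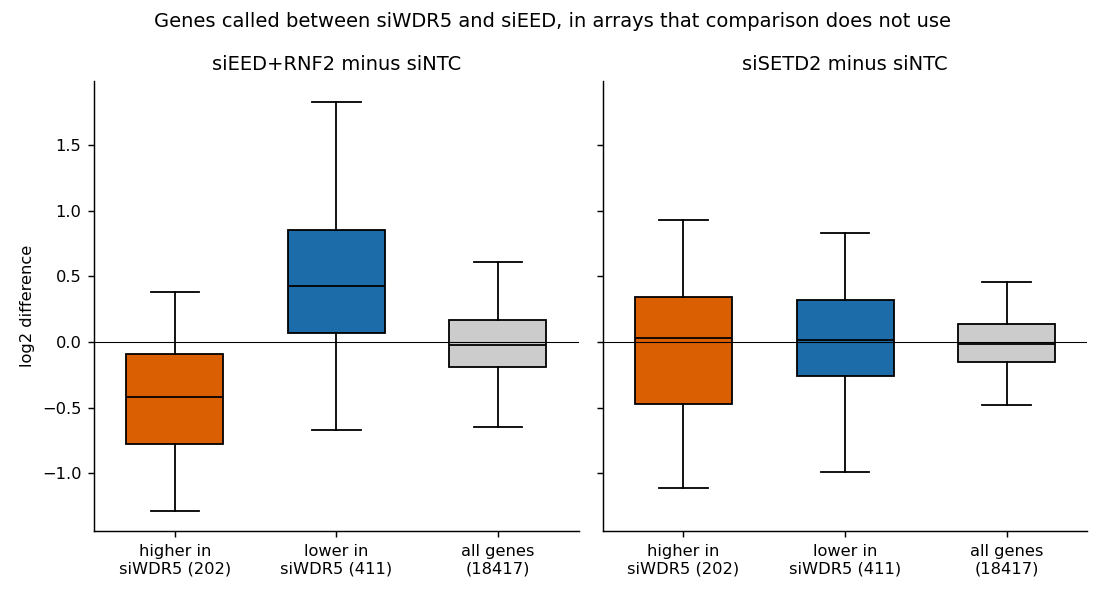
Log2 differences of siEED+RNF2 minus siNTC (left) and siSETD2 minus siNTC (right) for the 202 genes called higher in siWDR5 than in siEED, the 411 called lower, and all 18417 genes. Boxes span the quartiles with the median as a line, and whiskers reach percentiles 5 and 95; the medians on the left are -0.42, 0.43 and -0.02, and those on the right 0.03, 0.02 and -0.01.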

How the data were processed

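Total RNA of siRNA-transfected NCCIT cells, 250 ng per array, was labelled and hybridized to Affymetrix Human Gene 1.0 ST arrays. The authors deposited 1 table of log2 values for 33297 transcript clusters, made, as the submitters' processing notes have it, with GCRMA and Partek (their settings are not given in the labels or the paper). The overall level of each array is therefore set by a normalization done before deposit, and the balance of higher and lower calls depends on it. No further normalization was applied to the reported values, and 0 columns of array values were left unused.

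Gene names came from the platform annotation and were updated through RefSeq (GRCh38.p14): of the clusters, 12083 had no gene, 19460 had 1 (19429 matched by gene number) and 1754 had several, which were not named. For 769 genes with several clusters the brightest over all arrays stood for the gene. NANOG and POU5F1 had no cluster of their own. Dim genes were kept. A mean per group was fitted with limma 3.58.1 (R 4.3.3) over 12 arrays, which left 6 residual degrees of freedom, and variances were moderated by eBayes. The fit was tested on simulated data. Spans and promoters came from RefSeq. A comparison of promoter CpG content between called sets was void, since 75.2% of the higher, 73.5% of the lower and 77.3% of all genes had a promoter.

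The genes named were WDR5, EED, DNMT3L, A2ML1, HHIP, the DNA methyltransferases and SOX2, the 20 highest and 20 lowest differences among called genes without overlap between groups, and, per list, the called members with the largest differences (at most 5); values of some members that were not called, and of EGR1, ETV4, SLC1A4 and SLC7A5, are given beside them and were chosen after they were seen. Small RNA, LOC, LINC and open reading frame symbols were counted only. The members, lists, tests and named genes were chosen with earlier results of these data known. Alternatives were another normalization or centring, fits of fewer groups, the replicate block, other moderation, no dim genes, other cluster rules and thresholds, and leaving out each array.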

Additional observations from a re-analysis of the deposited data

Results flagged for a closer look

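For 6 of the named genes the knockdowns passed the calling threshold against siNTC in opposite directions; other named genes, such as NEFH, CD44 and BEX1, also had siNTC between the knockdowns without passing it on both sides. In every siWDR5 array PRTG, CDH9 and GRHL3 were below both siNTC arrays and in every siEED array above them, with differences siWDR5 minus siEED of -1.82, -1.70 and -1.68. CALB1, RND3 and B3GALT5, a galactosyltransferase, were above both siNTC arrays in every siWDR5 array and below them in every siEED array, with differences of 2.30, 1.29 and 1.27. CDH9, a cadherin, was 5.77 and 5.95 in siWDR5, against 7.52 and 7.60 in siEED and 6.90 and 6.87 in siNTC. RND3 was 10.07 and 9.99 in siWDR5, against 8.72 and 8.76 in siEED and 9.46 and 9.42 in siNTC. B3GALT5 was 7.89 and 7.90 in siWDR5, against 6.60 and 6.67 in siEED and 7.18 and 7.39 in siNTC. The test of each difference is the contrast of the 2 knockdowns itself, with adjusted p-values of 9.4e-08 for PRTG, 7.7e-07 for CDH9, 7.6e-08 for GRHL3, 1.8e-08 for CALB1, 1.6e-07 for RND3 and 2.8e-06 for B3GALT5 from limma. The siNTC arrays, labelled as a re-analysis, set where the middle lies, and their part in this was not tested. In siEED+RNF2 against siNTC, GRHL3 (1.08), CALB1 (-0.90) and RND3 (-1.24) were called in the direction seen in siEED, PRTG (0.41) and B3GALT5 (-0.51) were under the fold threshold, and CDH9 had the opposite sign (-0.29). In siRNF2 against siNTC, without siRNA against EED, GRHL3 (0.82), PRTG (0.62) and RND3 (-0.75) were called in the direction seen in siEED. CALB1 (-0.54) and B3GALT5 (-0.55) were under the fold threshold there, and CDH9 was called lower (-0.83). In siSETD2 against siNTC, GRHL3 (-1.03) and RND3 (-1.66) were called lower. PRTG (0.10), CDH9 (0.21), CALB1 (0.30) and B3GALT5 (-0.14) were not called there. Which siRNA these came from was not tested.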

How the results depend on the processing

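The calls rest on 2 arrays per group, a normalization made before deposit and a fold threshold. Without a fold threshold 1577 genes were higher and 2130 lower in siWDR5 than in siEED, and requiring 2-fold left 40 and 57. Leaving out 1 array gave 195 to 228 higher and 381 to 496 lower genes. Centring on the median over genes gave 296 and 280, and quantile normalization 228 and 339. The replicate number as a block gave 203 higher and 411 lower genes, against 202 and 411 without it. The replicate 1 minus replicate 2 values correlated at -0.11 between siWDR5 and siEED, and at 0.16 between siRNF2 and siEED+RNF2. Such correlations cannot settle whether the number pairs the arrays, which the labels do not say. Pairing replicate 1 with replicate 2, an alternative added after seeing the data, gave 202 and 411. No gene called as deposited was called in the opposite direction under the alternatives that kept 1 cluster or a mean per gene. For 100 named genes, 1460 of 1497 alternative values kept their direction and side of the threshold, 37 in 14 genes kept the direction and lost the call, and 0 reversed.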

Other observations

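Of the imprinted genes 3.85% were called and of the germline and meiosis genes 5.26%, against 3.33% of all genes. Of 26 imprinted genes, DLK1, a NOTCH-like membrane protein, was called lower in siWDR5, at 6.80 and 6.72 against 7.79 and 7.86 in siEED and 6.04 and 6.38 in siNTC (difference -1.07). Of 38 germline and meiosis genes, MNS1, a protein of sperm flagella, was 7.29 and 7.69 in siWDR5, against 8.75 and 8.71 in siEED and 9.24 and 9.26 in siNTC (-1.24), and TEX15, which acts in meiotic recombination, was 5.70 and 5.69 in siWDR5, against 6.74 and 6.73 in siEED and 6.45 and 6.35 in siNTC (-1.04). Among small nucleolar RNA genes, 5 of 115 with symbols starting SNORD were called higher in siWDR5 (4.35%) and 2 lower (1.74%), where 1.10% and 2.23% of all genes were. Of 179 microRNA genes 0 were called by limma. At p under 0.05 before adjustment 13 of them were higher and 8 lower, where 14.2% of all genes were higher and 17% lower.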
